A study of Mus musculus with 6 samples.

Results

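The clustered protocadherins are cell adhesion receptors encoded in 3 neighbouring gene clusters, alpha, beta and gamma, on mouse chromosome 18. They were taken as the protein-coding genes of GENCODE release M21 whose symbol starts with Pcdha, Pcdhb, Pcdhga, Pcdhgb or Pcdhgc. Of 57 such genes, 56 had a row among the 17889 genes of the deposited table: 14 alpha, 21 beta and 21 gamma genes. Pcdhb1 was not analysed here, and Pcdhgb8, annotated as a polymorphic pseudogene, is not a member. The samples came from C57BL/6J mice aged 28 days, all from prefrontal cortex: 3 of wild-type genotype (WT) and 3 titled Hetero with the genotype Cyfip2 mutant. Libraries were made with a stranded mRNA kit. The labels give neither the altered part of Cyfip2 nor whether each sample came from its own animal, so the spread behind each p-value is that between the libraries and may in part be technical.

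In the alpha and gamma clusters, each gene has its own large variable exon, which encodes the extracellular cadherin repeats, the membrane span and the start of the cytoplasmic tail. That exon is spliced to constant exons which every gene of the cluster shares. Beta genes consist of the variable exon alone. Single neurons express small and differing sets of alternate isoforms from promoters that are chosen by CTCF and cohesin, whereas the C-type isoforms (Pcdhac1, Pcdhac2, Pcdhgc3, Pcdhgc4 and Pcdhgc5) follow the cell type. The proteins bind their own kind between cells and serve self-avoidance, tiling and survival of neurons. Some of them, including the alpha proteins, recruit the WAVE regulatory complex, of which Cyfip2 is a subunit, through a short motif in the cytoplasmic tail.

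The values are normalized counts, scaled between samples. Whether they also carry a correction for transcript length is not given in the sources used here; if they do, the levels and shares per kb and the worth of 1 read are approximate. Column totals lay between 29879143 and 30735443. From the spacing of the low values, 1 read was worth between 0.681 normalized counts (Hetero sample 3) and 1.21 (WT sample 3), which corresponds to about 25500000 to 43900000 assigned reads per library. The upper end rests on Hetero sample 3, where 15.5% of the values under 60 were whole multiples of that worth. In the other samples the share was 23.3% to 28.1%, so these depths are rough. The mutated gene, Cyfip2, read 31933, 30496 and 27503 in WT and 20959, 21237 and 18285 in Hetero, so that all Hetero values were below all WT values. Its log2 change was -0.57 ± 0.07 (SE), with a limma adjusted p of 0.312. In bulk tissue, fewer cells of a type and less RNA per cell cannot be told apart.

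The gene models set how well a member can be told from its relatives. In GRCm38, the alpha members lie between 36930184 and 37187661, the beta members between 37294812 and 37524479 and the gamma members between 37661793 and 37841873 on chromosome 18, all on the plus strand. Alpha transcripts share 2860 bases of constant exons, and the variable exon makes up 45.1% to 51.4% of their length. Gamma transcripts share 2116 to 2119 bases, and the variable exon makes up 54.5% to 58.3%. A read from a constant exon fits every gene of its cluster, so only reads from the variable exon separate the members.

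The variable exons of the C-type members were the most distinct. Within the variable coding part, the closest relative of each C-type gene was 57.2% to 61.2% identical, against 75.1% to 83.7% for the other alpha members, 74.6% to 89.1% for beta and 72.3% to 79.5% for the other gamma members. Pcdhb6 and Pcdhb8 were the closest pair of all, at 89.1%, followed by Pcdhb7 and Pcdhb9 at 88.9%. All 31-base words of the C-type variable exons occurred in no other gene of the table. The median share of such words was 78.4% for the other alpha members and 93.0% for the other gamma members. Pcdha4 is a special case, since 3.76% of the words of its variable exon are found in no other annotated gene. Among the genes of the table the value is 81.7%, so most of the shared words lie only in annotated genes without a row. Gm42416, not used here, is an overlapping annotated read-through gene. Whether the submitters' read assignment included such genes is not given in the sources used here.

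Gamma transcripts made up most of the clustered protocadherin signal. The gamma share of the summed normalized count was 64.3%, 67.1% and 69.1% in WT samples 1 to 3 and 65.2%, 64.1% and 65.5% in Hetero samples 1 to 3. The alpha share was 22.1%, 20.3% and 19.7% in WT and 21.7%, 22.3% and 21.9% in Hetero. The beta share was 13.7%, 12.6% and 11.2% in WT and 13.1%, 13.6% and 12.6% in Hetero. For all 3 clusters the ranges of the groups overlapped. WT sample 3 had the lowest alpha and beta shares and the highest gamma share of the 6 samples.

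**Figure D1:**
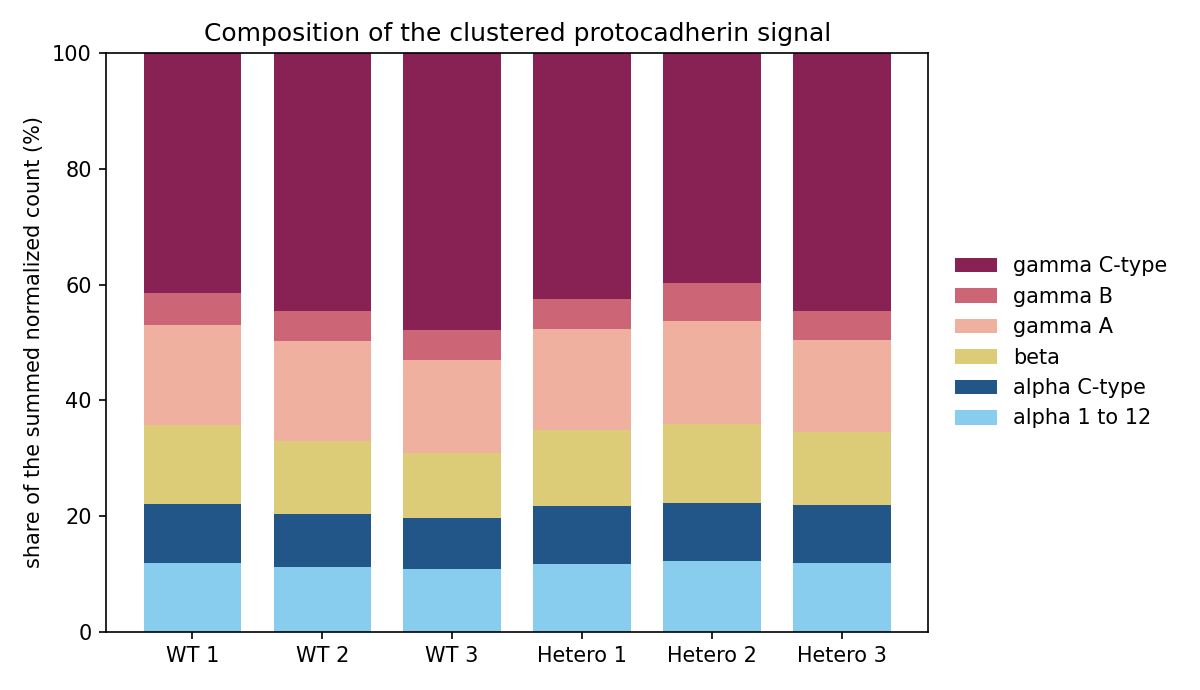
Share of the summed normalized count of the 56 members (y axis, %) taken by each subfamily in the 3 WT and 3 Hetero samples (x axis). The 5 C-type genes, drawn in the darkest colours, take between 49.8% and 56.8% of the bar in every sample.

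Because a longer transcript yields more reads, the shares were also computed after dividing each member by its annotated transcript length. Per kb, the alpha share averaged 18.1% ± 1.00 in WT and 19.2% ± 0.221 in Hetero, the beta share 14.3% ± 1.55 and 15.1% ± 0.540, and the gamma share 67.6% ± 2.53 and 65.7% ± 0.697 (SD of 3 samples each). The order gamma, alpha, beta held in each sample on both scales.

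The sum over all 56 members was 31333, 32814 and 33213 in WT and 32428, 32323 and 32583 in Hetero, with overlap. The alpha sum was 6916, 6660 and 6559 in WT and 7053, 7200 and 7131 in Hetero, so every Hetero sample lay above every WT sample, by 1.98% at the nearest. The ratio of Hetero to WT was 1.06, and it stayed between 1.05 and 1.08 with any 1 sample left out. No test was made for this sum, since the members were chosen with earlier results known. The beta sum was 4050 ± 297 in WT and 4247 ± 150 in Hetero, a ratio of 1.05. The gamma sum was 21692 ± 1429 and 21069 ± 321, a ratio of 0.971, and both overlapped between the groups.

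Markers of cell types and tissues stand beside the alpha sum. At a limma adjusted p under 0.05, 0% of all tested genes passed, and so none of these markers. The sum of 5 choroid plexus markers was 63.7 to 84.2 in WT and 103 to 129 in Hetero, for all 5 together. Of its 3 tested genes, 3 had higher fitted values, and its defining gene Ttr was at 4.32 to 26.5 in WT and 11.3 to 42.6 in Hetero. The sum of 5 striatal markers was 2825 to 3318 in WT and 3402 to 3579 in Hetero, with 2 of 5 genes higher, and the receptor genes Drd1 and Drd2 were not among those 2. The sum of 5 excitatory neuron markers was 187627 to 195161 in WT and 175349 to 182080 in Hetero, with 3 of 5 genes lower. Oligodendrocyte precursor markers had lower fitted values for 5 of 5 genes (median log2 change -0.25), 4 of them at an unadjusted p under 0.05 in limma and without overlap. Their sums overlapped, at 8515 to 10145 in WT and 7319 to 8617 in Hetero. Over all tested genes, 2.17% had an unadjusted p under 0.05 in limma with lower values in Hetero. Further, 4.32% were lower without overlap, and 49.1% had a fitted change above 0. Microglia markers had lower fitted values for 6 of 6 genes (median log2 change -0.11), 1 of them at an unadjusted p under 0.05 in limma. The microglia sums also overlapped, at 8915 to 9848 in WT and 8321 to 9107 in Hetero. Sums of the remaining sets overlapped as well. Higher fitted values were found for 5 of 6 meninges and fibroblast genes (median log2 change 0.28). Of 7 inhibitory neuron genes, 5 were higher (median 0.08). Lower ones were found for 5 of 6 mature oligodendrocyte, 4 of 6 astrocyte (both medians -0.06) and 3 of 5 endothelial genes (-0.01). The part of these markers in the alpha values was not tested.

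The C-type genes accounted for 51.6%, 53.7% and 56.8% of the family's normalized count in WT and for 52.6%, 49.8% and 54.4% in Hetero, although they are 5 of 56 members. Per kb of transcript the same share was 52.8% ± 2.83 in WT and 50.9% ± 2.33 in Hetero (SD of 3 samples each). They supplied 45.3% ± 0.392 of the alpha signal in WT and 45.7% ± 0.556 in Hetero. Of the gamma signal they supplied 66.8% ± 2.43 and 65.0% ± 3.00. The 12 other alpha genes made up 11.3% ± 0.587 and 11.9% ± 0.252 of the family, the 12 gamma A genes 16.9% ± 0.666 and 17.1% ± 1.05, and the 6 gamma B genes 5.27% ± 0.227 and 5.65% ± 0.790.

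Pcdhgc5, which is known to interact with GABA-A receptors, was the most abundant member. It read 6025, 6289 and 6619 in WT and 5773, 6393 and 5969 in Hetero. The groups overlapped, with a log2 change of -0.06 and a 95% interval from -0.20 to 0.07. Its mean of 1303 normalized counts per kb exceeded 90.1% of the 14523 tested protein-coding genes with a transcript length.

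Pcdhgc4, required for the survival of cortical interneurons, read 3618, 4694 and 5394 in WT and 4654, 3202 and 5019 in Hetero. WT sample 1 and Hetero sample 2 were low, so the spread ran within both groups and not between them, with a highest value 1.68 times the lowest. Its within-group SD was 0.32 on the log2 scale, against a median of 0.12 over all tested genes, and the interval of its log2 change reached from -0.61 to 0.42. In the same 2 samples the summed markers of meninges and fibroblasts were at their highest, 3032 and 3024, against 1804 to 2776 in the others, and 5 of its 6 genes had higher fitted values in Hetero. That comparison was picked after the values were seen, and its part was not tested. Inhibitory neuron markers, which could carry Pcdhgc4 signal, summed to 21239 in WT sample 1 and 21612 in Hetero sample 2. Their range over the 6 samples was 20386 to 22797, and the part of these markers was not tested either.

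Pcdhgc3, which promotes dendrite branching in cortical neurons, read 3357, 3623 and 3902 in WT and 3350, 3230 and 3506 in Hetero. The ranges overlapped, with a log2 change of -0.11 and an interval from -0.26 to 0.04. As a share of the gamma cluster, Pcdhgc3 was 16.7%, 16.5% and 17.0% in WT and 15.8%, 15.6% and 16.4% in Hetero, lower in each Hetero sample than in each WT sample. That gap was narrow, between 16.4% and 16.5% at its nearest. Pcdhgc4 was above Pcdhgc3 in 5 of 6 samples, with a ratio of 0.991 in Hetero sample 2 and of 1.08 to 1.43 in the others.

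Pcdhac2, the isoform by which serotonergic axons tile their targets, was the leading alpha gene. It read 2859, 2690 and 2748 in WT and 2914, 2875 and 2887 in Hetero. The Hetero values lay just above the WT values, and the mean differed little, with a log2 change of 0.06 ± 0.05 (SE) and an interval from -0.05 to 0.18. Its within-group SD of 0.03 was the smallest of all members. Its share of the alpha cluster was 41.2% ± 0.757 in WT and 40.6% ± 0.700 in Hetero (SD of 3 samples each).

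Pcdhac1, the other alpha C-type gene, was far less abundant. It read 307, 309 and 215 in WT and 356, 392 and 353 in Hetero, so the groups did not overlap. Its log2 change of 0.42 ± 0.14 (SE) had the smallest unadjusted p of all members (0.016, limma), and a limma adjusted p over all genes of 1 after rounding. The size of the difference drew on WT sample 3, and without it the log2 change was 0.25. As a share of the alpha cluster, Pcdhac1 was 3.27% to 4.64% in WT and 4.94% to 5.45% in Hetero.

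**Figure D2:**
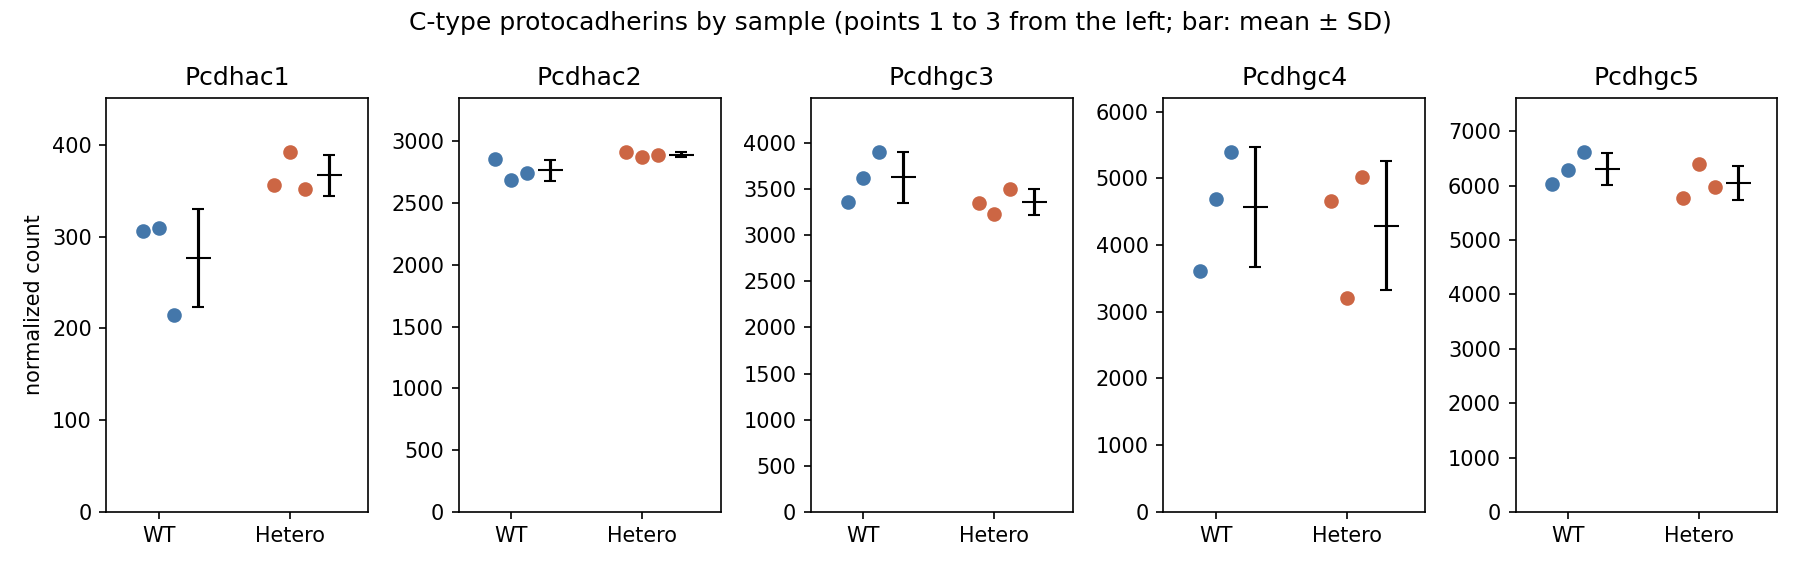
Normalized counts (y axes from 0) of the 5 C-type genes in 3 WT and 3 Hetero samples, each point a sample in numerical order, with the mean ± SD beside the points. Pcdhac1 lies at 215 to 309 in WT and 353 to 392 in Hetero, while Pcdhgc4 spreads between 3202 and 5394 in both groups together.

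Levels within a cluster were compared per kb of transcript, as means over the 6 samples. In the alpha cluster they ran from 5.41 (Pcdha8) to 480 (Pcdhac2), an 88.9-fold range. The order began with Pcdhac2, then Pcdha12 at 152 and Pcdha5 at 92.1, and ended with Pcdha1 at 19.7 and Pcdha8. Of 13 neighbouring pairs in this order, 3 had ranges over the 6 samples that did not overlap: Pcdhac2 with Pcdha12, Pcdha12 with Pcdha5, and Pcdha1 with Pcdha8. For the other neighbours the ranges overlapped, which does not exclude a difference within samples, since both genes of a pair were read in the same libraries. Pcdha4, for example, was above Pcdhac1 per kb in each sample, with means of 80.8 and 59.4. Differences within samples were not tested for these pairs.

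Pcdha12 read 871, 714 and 688 in WT and 810, 779 and 992 in Hetero, which overlap. Pcdha5 read 432, 471 and 485 in WT and 494, 482 and 514 in Hetero, also with overlap. Pcdha8 was the least abundant member, with 14.5, 36.3 and 15.7 in WT and 17.1, 55.0 and 34.6 in Hetero. Each of its values rests on few reads, and its log2 change of 0.63 had an interval from -0.43 to 1.70 and was 0.25 without Hetero sample 2 and 1.07 without Hetero sample 1. Pcdha7, the closest relative of Pcdha8 (83.7% identical), read 332, 332 and 340 in WT and 244, 355 and 298 in Hetero, a log2 change of -0.18 ± 0.13 (SE) that was -0.04 without Hetero sample 1 and -0.31 without Hetero sample 2.

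The annotation gives the symbol Pcdha11 to 2 neighbouring genes, ENSMUSG00000007440 and ENSMUSG00000102206. The former read 157, 128 and 218 in WT and 187, 178 and 203 in Hetero. The latter read 221, 292 and 133 in WT and 203, 274 and 206 in Hetero. In WT, the sample that was high for the former was low for the latter. The within-group SD was 0.28 and 0.44 on the log2 scale for the single genes and 0.12 for their sum, which was 378, 420 and 351 in WT and 389, 453 and 409 in Hetero. Across the alpha cluster, members had a median SD of 0.19 and the cluster sum one of 0.03. For beta these values were 0.18 and 0.08, and for gamma 0.16 and 0.07. Pcdhac2, with an SD of 0.03 of its own, held 41.2% of the alpha sum in WT and 40.6% in Hetero. Whether reads moved between members was not tested.

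The beta genes spanned a narrower range than the alpha or gamma genes with their C-type members included. Per kb they ran from 18.3 (Pcdhb4) to 103 (Pcdhb17), a 5.66-fold range, and 1 of 20 neighbouring pairs was apart (Pcdhb7 above Pcdhb19). Pcdhb17 read 525, 462 and 413 in WT and 507, 507 and 478 in Hetero. Pcdhb20 followed at 94.9 per kb and was the steadiest beta gene, with 324, 354 and 331 in WT and 338, 348 and 334 in Hetero. Pcdhb9 was next at 83.0 per kb and had 312, 232 and 245 in WT and 259, 224 and 248 in Hetero. Pcdhb4 read 64.7, 78.9 and 60.5 in WT and 64.2, 70.5 and 68.6 in Hetero. In all 4 genes the groups overlapped.

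Evenness was also expressed as the effective number of members, the exponential of the Shannon entropy of their shares of the normalized count. It was 17.7 ± 0.270 of 21 in WT and 18.0 ± 0.0488 in Hetero for beta (SD of 3 samples each). For alpha it was 7.95 ± 0.173 of 14 in WT and 8.03 ± 0.183 in Hetero, and for gamma 9.80 ± 0.577 of 21 and 10.2 ± 0.612. Without the C-type genes the gamma value was 16.5 ± 0.244 of 18 in WT and 16.5 ± 0.182 in Hetero.

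In the gamma cluster the level per kb ran from 35.2 (Pcdhgb5) to 1303 (Pcdhgc5). Between Pcdhgc3 at 746 and the next member, Pcdhga12 at 154, the level dropped 4.83-fold. The 18 alternate gamma genes spanned a 4.39-fold range, narrower than that of the beta genes. Of 20 neighbouring pairs, 3 were apart: Pcdhgc5 with Pcdhgc4, Pcdhgc3 with Pcdhga12, and Pcdhgb7 with Pcdhgb5. Pcdhgb5 read 147, 157 and 159 in WT and 187, 187 and 149 in Hetero.

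Levels were also set against the position of each gene along its cluster. In genomic order from the 5′ end, the Spearman correlation of order with level per kb was 0.44 over the 14 alpha genes, 0.39 over the 21 beta genes and 0.34 over the 21 gamma genes. Without the C-type genes, which sit at the 3′ ends of their clusters, it was 0.26 for alpha (n = 12) and -0.05 for gamma (n = 18). For beta it was 0.66 when the level was taken per kb of coding sequence. The annotated single-exon beta transcripts vary from 2801 to 8695 bases, but their coding sequences only from 2316 to 2487. The coding scale is therefore close to the count without a length correction, and the part of transcript length in the 0.66 was not tested. These correlations describe the members and share libraries, depth and annotated lengths, so no p is given.

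The order of levels was stable between samples. Over all 56 members, the Spearman correlation between any 2 of the 6 samples was 0.949 to 0.980. It was 0.916 to 0.972 over the 12 alternate alpha genes, 0.910 to 0.960 over the beta genes and 0.792 to 0.946 over the 18 alternate gamma genes, as a description across genes that are not independent.

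**Figure D3:**
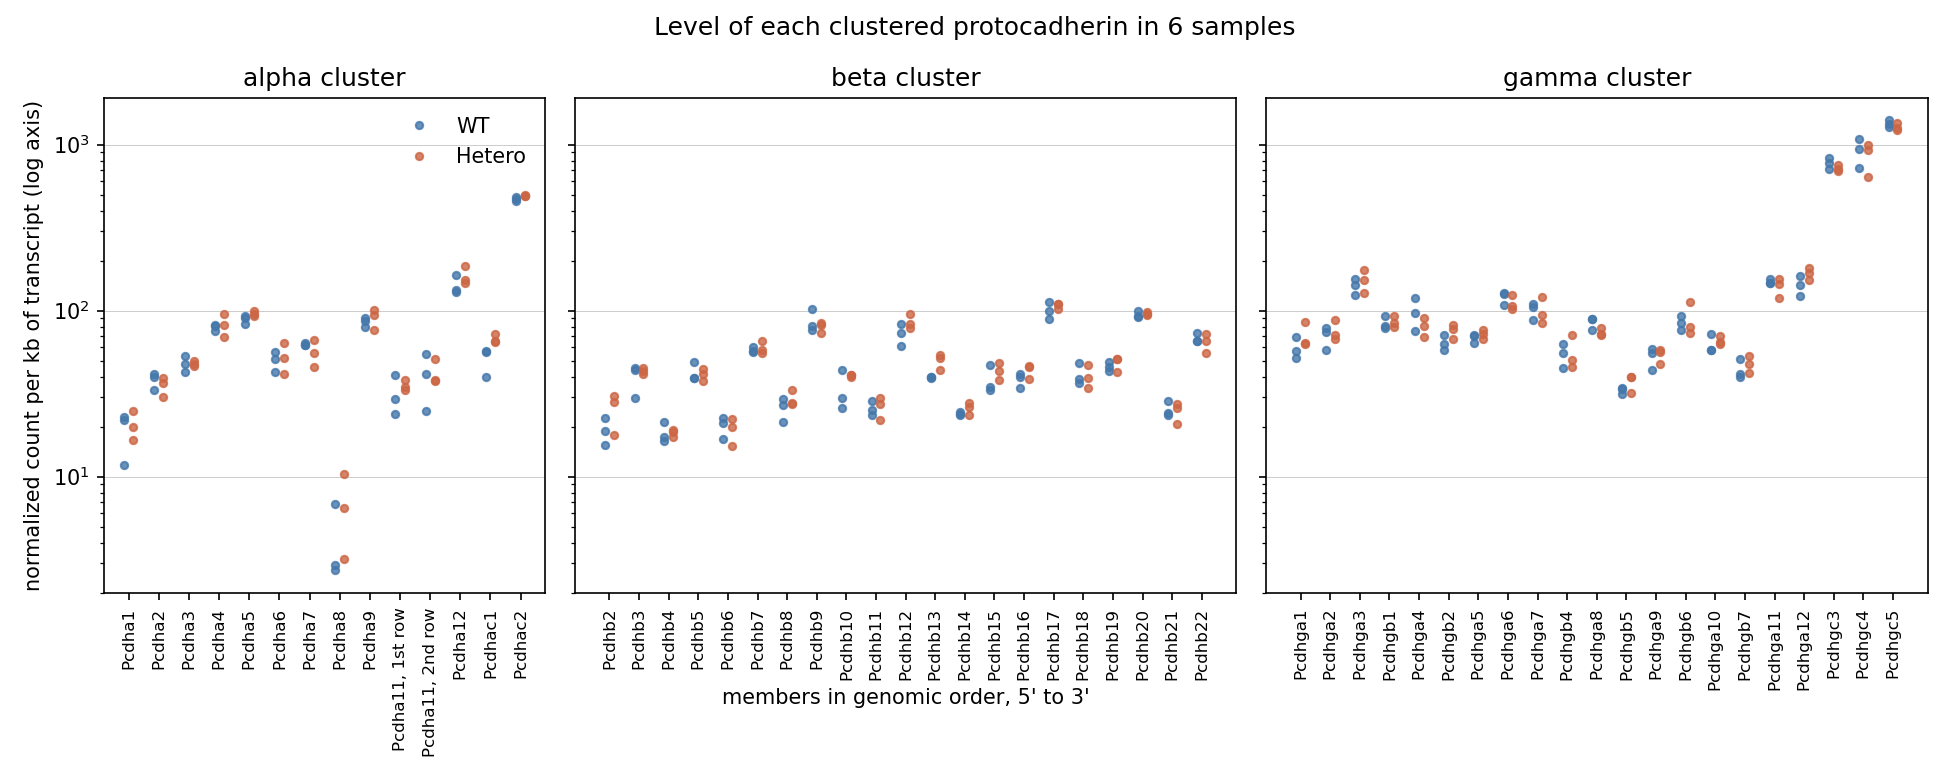
Normalized count per kb of annotated transcript (y axis, log scale) of every member in 3 WT (blue) and 3 Hetero (orange) samples, in genomic order within the alpha, beta and gamma clusters (x axis). Pcdhac2 at a mean of 480 and the gamma C-type genes at 746 to 1303 stand above the other members, which lie at 5.41 to 154.

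The comparison of Hetero with WT tested whether any clustered protocadherin differed with the Cyfip2 genotype. All 56 members had a mean of at least 10 and were among the 14969 tested genes. In limma, 0 members passed at an adjusted p under 0.05, and 0% of all tested genes did. At an unadjusted p under 0.05 there were 3 members (5.36%), Pcdhac1, Pcdhb13 and Pcdhga12, all with higher values in Hetero, where 3.83% of all tested genes reached it in either direction, 1.66% with higher and 2.17% with lower values. The groups did not overlap for 3 members (5.36%), Pcdhac1, Pcdhac2 and Pcdhb13, all higher in Hetero, against 8.72% of all tested genes in either direction and 4.4% on the higher side. These are 3 genes in each count, and the share without overlap is near the background.

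Pcdhb13 read 148, 148 and 145 in WT and 192, 201 and 164 in Hetero. All Hetero values lay above the WT values, with a log2 change of 0.33 ± 0.12 (SE) and an unadjusted p of 0.0254 in limma. Pcdhga12 read 623, 818 and 720 in WT and 916, 779 and 851 in Hetero. Its groups overlapped, with a log2 change of 0.24 ± 0.11 (SE) and an unadjusted p of 0.0493 in limma, and the change was 0.14 without WT sample 1. For both genes the limma adjusted p rounded to 1.

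Other members with a small p in their cluster were spread over both directions. Pcdhb12 read 254, 222 and 185 in WT and 288, 252 and 237 in Hetero, a log2 change of 0.24 that was 0.12 without WT sample 3. Pcdhb10 read 125, 84.3 and 73.6 in WT and 116, 116 and 113 in Hetero, where the WT samples bracket the Hetero samples, and its log2 change of 0.33 was 0.17 without WT sample 3 and 0.55 without WT sample 1. Pcdhgb2 read 271, 332 and 292 in WT and 361, 384 and 315 in Hetero, a log2 change of 0.24. Pcdhga8 read 362, 423 and 424 in WT and 339, 371 and 342 in Hetero, a log2 change of -0.20. Each of these 4 genes overlapped between the groups.

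The median log2 change over the 56 members was 0.07, against -0.0019 over all tested genes, and 40 of 56 (71.4%) had a fitted change above 0, against 49.1% of all tested genes. By cluster the count was 12 of 14 for alpha (median 0.09), 15 of 21 for beta (median 0.07) and 13 of 21 for gamma (median 0.05). Of the 5 C-type genes, the alpha pair had fitted changes above 0 and the gamma genes below. Members of a cluster share reads and libraries, so these counts are a description. They also rested on single samples: 31 of 56 were above 0 without WT sample 3 (median 0.02) and 29 of 56 without Hetero sample 2 (median 0.03). WT sample 3 held the lowest value for 20 of 56 members, 9 of them beta genes, and Hetero sample 2 the highest for 18 of 56. Mature oligodendrocyte markers summed to 143152 in WT sample 3, against 88533 to 122529 in the others, and their part was not tested.

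The precision of the comparison bounds the size of change these samples allow. For 46 of 56 members (82.1%) the whole 95% interval was smaller than a 1.5-fold difference either way, as for 80.9% of all tested genes. The median SE of the log2 change was 0.13 over the members and 0.10 over all tested genes. The 10 members with wider intervals were Pcdha1, Pcdha8, both Pcdha11 genes, Pcdhac1, Pcdhb2, Pcdhb10, Pcdhb13, Pcdhga4 and Pcdhgc4.

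**Figure D4:**
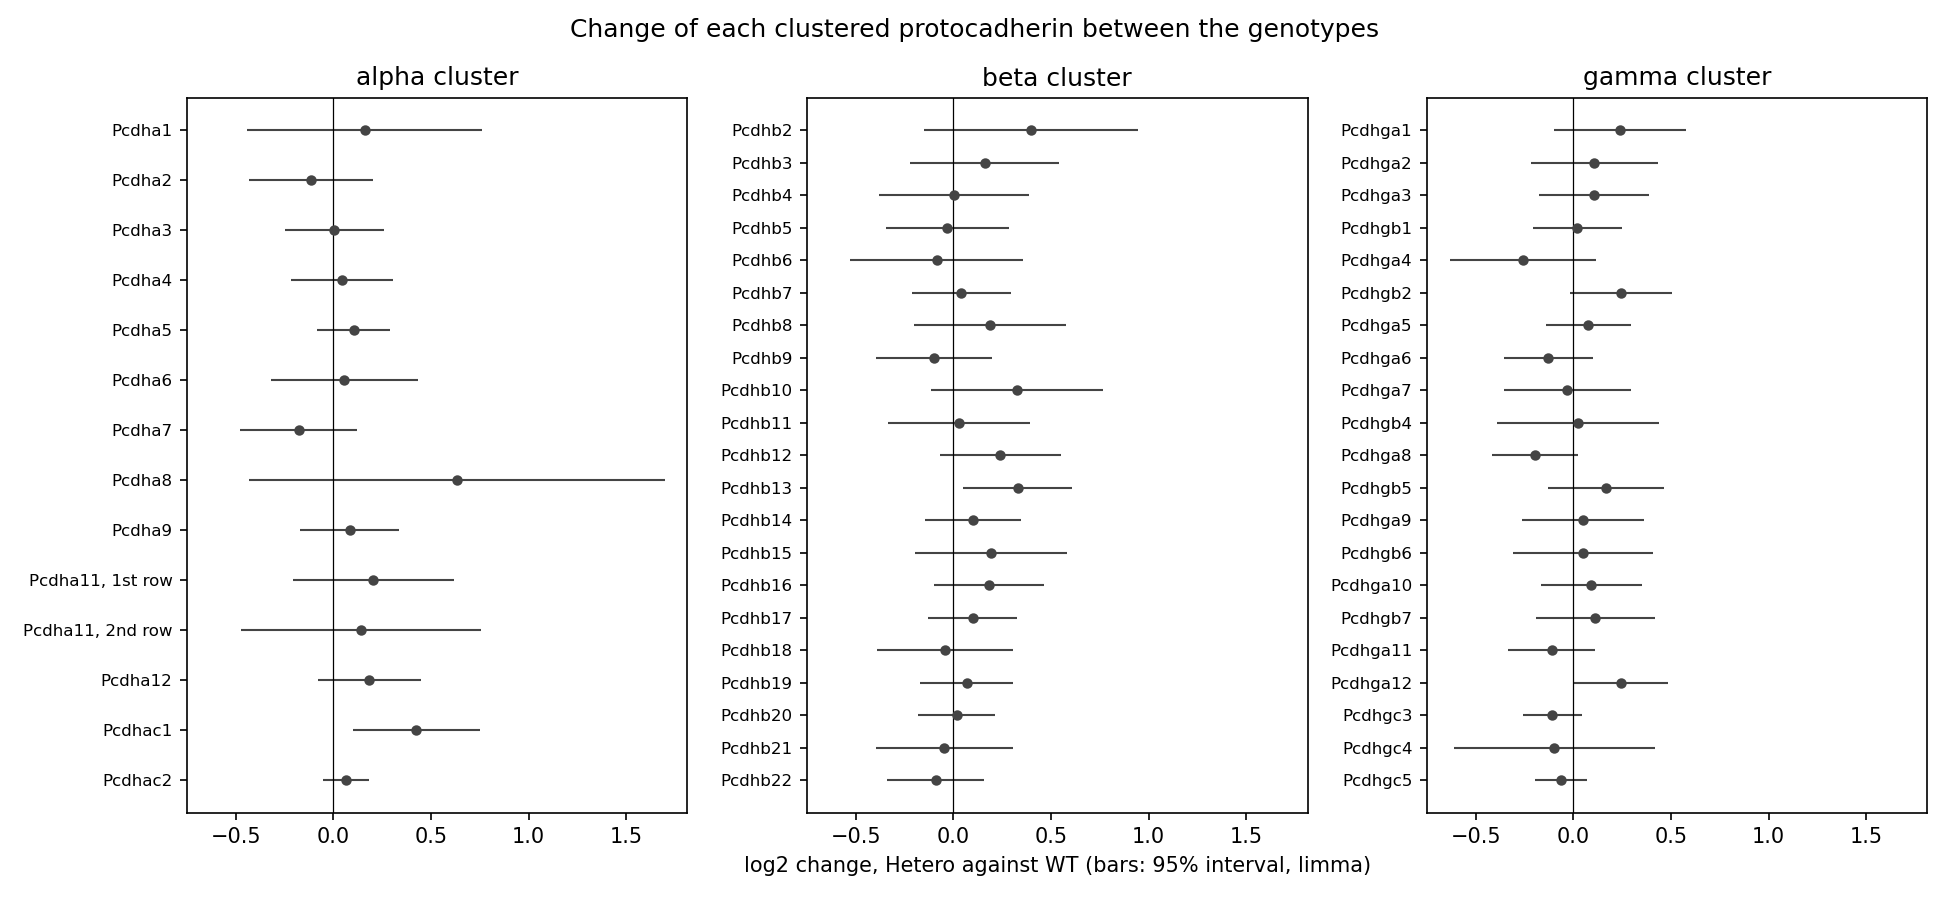
Log2 change of each member between Hetero and WT (x axis) with its 95% interval from limma, in genomic order from top to bottom for the alpha, beta and gamma clusters. The intervals of Pcdhac1, Pcdhb13 and Pcdhga12 lie above 0 without adjustment for the 14969 genes tested, and Pcdha8 has the widest interval.

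Genes that act with the clustered protocadherins were examined from 4 lists, and 0 of their genes passed at a limma adjusted p under 0.05. For comparison, 49.1% of all tested genes had a fitted change above 0 and 3.83% an unadjusted p under 0.05 in limma. The groups did not overlap for 8.72% of all tested genes. Among 19 measured regulators of isoform choice, such as CTCF, cohesin subunits and DNA and histone methyltransferases, 8 had higher and 11 lower fitted values, with 1 at an unadjusted p under 0.05. That gene was Dnmt3a, a DNA methyltransferase, which read 5214, 5075 and 5507 in WT and 4931, 4620 and 4873 in Hetero, a log2 change of -0.13 ± 0.06 (SE). The cohesin release factor Wapl had the next smallest p and read 1435, 1420 and 1209 in WT and 1211, 1318 and 1072 in Hetero, with overlap.

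Of the 11 genes of the WAVE regulatory complex, 2 had higher and 9 lower fitted values, and Cyfip2 alone had an unadjusted p under 0.05 in limma. Among all 14969 tested genes, 7354 had higher and 7615 lower fitted values. The summed level of the complex was 69217 to 76504 in WT and 58194 to 65317 in Hetero with Cyfip2 included. Without Cyfip2 it was 41714 to 44570 in WT and 39909 to 44080 in Hetero, with overlap. Cyfip1, its paralog, averaged 2610 ± 132 in WT and 2627 ± 161 in Hetero (SD of 3 samples each). Nckap1l, the haematopoietic form of Nckap1, read 514, 544 and 562 in WT and 426, 516 and 489 in Hetero.

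Among 16 signalling and processing partners, 6 had higher and 10 lower fitted values, with a median log2 change of -0.02. The tyrosine kinase gene Ptk2b, whose product Pyk2 is inhibited by clustered protocadherin tails, read 9158, 9317 and 8714 in WT and 9775, 9992 and 9564 in Hetero, without overlap and with a log2 change of 0.11 ± 0.05 (SE). Among all tested genes, 4.4% were higher in Hetero without overlap. Of the 12 non-clustered protocadherins, which lie outside the 3 clusters, 7 had higher and 5 lower fitted values, with a median log2 change of 0.02. Pcdh17 read 2158, 2097 and 2073 in WT and 1946, 1962 and 1637 in Hetero, a log2 change of -0.20 ± 0.08 (SE) that was -0.11 without Hetero sample 3. Pcdh9 differed by 0.12 ± 0.07 (SE), and by 0.04 without Hetero sample 2.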

How the data were processed

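The authors deposited 1 table of normalized counts, used here as a signal: values are not whole, and column totals are nearly equal. Salmon 0.11.2, DESeq2 1.19.11, R 3.6.0 and the build GRCm38 stand, with no roles, in the submitters' processing notes. The formula of the scaling is not given in the sources used here. Of 17889 identifiers, 17857 matched GENCODE M21 (GRCm38). At most 28.1% of a sample's values under 60 were whole multiples of its step (tolerance 0.02 of a step), so whole reads were not recovered and no count test was run.

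Genes with a mean of at least 10 were tested as log2(value + 1) with limma 3.58.1 in R 4.3.3 (trend, robust). Tests are two-sided, and p-values were adjusted by Benjamini-Hochberg over the whole tested table. Log2 changes are on that scale and understate changes of low genes. The procedure was tested on simulated data. Lengths are those of the longest protein-coding transcript. Identity came from global alignments (Biopython 1.88), and 31-base words were compared over annotated transcripts. No library was a duplicate: 2 libraries of the same group differed by a median of at least 0.09 on the log2 scale.

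Members and lists were chosen with earlier results of these data known. Named members are the C-type genes and, in each cluster, the 3 highest and the lowest per kb and the 3 with the smallest p; in each list, the 2 with the smallest p; and Cyfip1 and Cyfip2. Other names were chosen after their values were seen. The values of 1 gene that this rule names are not reported here. Alternatives were fits without trend and robust fitting, TMM scaling, median centring, other filters and pseudocounts, a replicate block, leaving out each sample, shares per transcript length or without the C-type genes and, chosen after seeing the data, shares per coding length.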

Additional observations from a re-analysis of the deposited data

How the results depend on the processing

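No member passed at an adjusted p under 0.05 under any of the 14 alternatives of the limma fit, and the lowest adjusted p of any member was 0.607 (Pcdhac1, with the replicate block). With the sample number as a replicate block, 2 genes of the whole table passed in limma, Cyfip2 (log2 change -0.57, adjusted p = 0.0016) and Jun. Deviations of same-numbered samples from their group means had correlations of -0.00503, 0.00436 and 0.227. Those of differently numbered samples lay between -0.184 and 0.181. With 3 samples per group, these values cannot decide whether the numbers pair the samples. Leaving out 1 sample gave 0 to 1 genes of the whole table (Rpl15-ps3 without WT sample 1, Gm10240 without Hetero sample 2) and 0 members. For Cyfip2 the adjusted p lay between 0.0016 and 1 over the alternatives. Of 29 named genes, 24 kept their sign under all alternatives, and every change of sign came from leaving out a sample, with ranges around 0: Cyfip1 from -0.04 to 0.05, Pcdhb4 from -0.08 to 0.11, Pcdhb9 from -0.18 to 0.03, Pcdhb20 from -0.01 to 0.05 and Pcdhgc4 from -0.26 to 0.10. The alpha share, Hetero minus WT, was 1.26 percentage points, and 0.383 when the C-type genes were left out of all clusters. Leaving out 1 sample moved it between 0.787 (without WT sample 3) and 1.95 (without WT sample 1). Without the same 2 samples in turn, the beta difference of 0.59 percentage points was -0.0668 and 1.18, and the gamma difference of -1.86 was -0.72 and -3.12. The log2 change of Pcdhgc3 was -0.05 and that of Pcdhgc5 -0.03 without WT sample 3, and Pcdhgc5 had -0.10 without WT sample 1. Genes near 30 normalized counts, such as Pcdha8, rest on few reads. The within-group SD of Pcdha8 was 0.76 on the log2 scale, and the source of that spread was not tested.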
